A study of Mus musculus with 19 samples.

Results

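Kupffer cells are the resident macrophages of the liver. They sit in the sinusoids, where they take up particles, microbes and dying cells from the portal blood, and in mice they are told from other macrophages by a small set of surface receptors. In steatohepatitis, monocyte-derived macrophages enter the same niche, and genes of the resident cells are then read beside genes that all macrophages carry. The genes described here are 10 such markers, taken by symbol from the deposited table: Clec4f, Clec1b, Timd4, Vsig4, Marco, Cd163, Cd5l, Adgre1, Folr2 and Nr1h3. They are 10 of the 52110 named entries of the table, each was found in 1 row, and all 10 are among the 10577 genes that passed a mean of at least 1 FPKM (fragments scaled to gene length and library size) over all samples.

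The data are RNA-seq values of 19 mouse liver samples in 4 groups. Mice of genotype WT received normal chow (NC) or CDAHFD, a high-fat diet that lacks choline, has amino acids in place of protein and is used to bring about steatohepatitis. On each diet they received a sham treatment or remote limb ischemic conditioning (RIC), in which blood flow to a limb is restricted in bouts. The groups are NC_sham (n = 5), NC_RIC (n = 5), CDAHFD_sham (n = 5) and CDAHFD_RIC (n = 4). Strain, age, sex, length of feeding and the schedule of conditioning are not given in the sources used here, and nothing says whether samples of a group came from separate animals, so the p-values rest on a spread between samples that may be technical. Each group entered more than 1 comparison, so the comparisons are not independent of each other. The libraries were whole liver, in which fewer cells of a type and less RNA per cell cannot be told apart. Depth, estimated from the value that 1 read is worth, was about 16000000 to 26400000 reads per sample. The hepatocyte list summed to 42665 to 53223 FPKM in NC_sham and to 57545 to 68585 FPKM in NC_RIC. It summed to 35928 to 41369 FPKM in CDAHFD_sham and to 35871 to 47681 FPKM in CDAHFD_RIC. Alb was the largest part of these sums.

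The markers lie on 8 chromosomes of the mm10 assembly: Clec4f at chr6:83644542-83656187, Cd163 at chr6:124304656-124330527 and Clec1b at chr6:129397297-129409335, Timd4 at chr11:46810800-46844332, Vsig4 at chrX:96247203-96293438, Marco at chr1:120474538-120505024, Cd5l at chr3:87357881-87371073, Adgre1 at chr17:57358691-57483527, Folr2 at chr7:101839988-101857194 and Nr1h3 at chr2:91184061-91202834 (GENCODE M21, all protein-coding). Clec1b shares exonic bases with Clec9a, a dendritic cell lectin gene on the same strand, and reads there cannot be assigned to either with certainty.

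RefSeq start sites of the GRCm38.p6 build were matched for 9 of the 10 markers, with 11 windows of 250 bases before to 50 bases after the start in all, because Folr2 and Nr1h3 have 2 each. The windows of 4 markers are printed because of how their transcripts behaved: Clec4f and Vsig4 followed each other most closely between samples of a group among the lectin and phagocytic receptors, while Timd4 and Cd163 were the markers that did not rise with the diet in sham mice. Capitals mark AGGTCA, the half-site bound by many nuclear receptors, and AGGAAGT, a core bound by PU.1, searched on both strands.
Clec4f, chr6:83656067-83656366, minus strand: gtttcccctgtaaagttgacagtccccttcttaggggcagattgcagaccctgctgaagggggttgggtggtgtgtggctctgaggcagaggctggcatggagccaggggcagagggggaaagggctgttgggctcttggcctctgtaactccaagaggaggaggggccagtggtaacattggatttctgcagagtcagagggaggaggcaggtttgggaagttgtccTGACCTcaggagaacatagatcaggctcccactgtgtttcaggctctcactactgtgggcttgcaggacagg
Vsig4, chrX:96293389-96293688, minus strand: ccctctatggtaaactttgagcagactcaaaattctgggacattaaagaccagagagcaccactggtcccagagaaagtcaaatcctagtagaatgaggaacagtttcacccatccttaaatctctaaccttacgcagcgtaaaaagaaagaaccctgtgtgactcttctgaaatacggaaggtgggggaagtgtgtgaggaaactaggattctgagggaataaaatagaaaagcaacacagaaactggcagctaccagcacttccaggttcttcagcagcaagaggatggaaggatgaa
Timd4, chr11:46810549-46810848, plus strand: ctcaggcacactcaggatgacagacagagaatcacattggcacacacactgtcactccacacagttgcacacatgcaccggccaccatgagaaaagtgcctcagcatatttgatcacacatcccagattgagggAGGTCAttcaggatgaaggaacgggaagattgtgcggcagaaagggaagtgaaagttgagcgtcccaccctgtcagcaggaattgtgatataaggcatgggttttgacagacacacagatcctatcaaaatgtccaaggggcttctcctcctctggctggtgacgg
Cd163, chr6:124304401-124304700, plus strand: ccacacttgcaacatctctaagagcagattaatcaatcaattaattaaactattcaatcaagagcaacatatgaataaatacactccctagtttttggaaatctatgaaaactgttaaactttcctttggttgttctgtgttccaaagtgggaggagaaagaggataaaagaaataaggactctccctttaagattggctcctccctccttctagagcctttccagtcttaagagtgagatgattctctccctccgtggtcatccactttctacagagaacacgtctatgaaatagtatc
AGGTCA was present in 2 of the 11 windows, those of Clec4f (at -22 from the start) and Timd4 (at -116), against 16.3% of all 32851 windows of this length. AGGAAGT was present in 1 of the 11, a Folr2 window with matches at -137 and -82, against 9.35% of all windows. These matches are letters in a window and were not measured as binding. In 9 of the 11 windows the number of CG dinucleotides was under the median of 7 over all windows. Clec4f, Marco and Cd5l had 0 in theirs, and the exceptions were both windows of Nr1h3, with 8 and 10.

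In NC_sham livers the markers covered a wide range. Nr1h3 (18.7 ± 0.808 FPKM, SD, n = 5), Clec4f (18.1 ± 1.76), Cd5l (17.0 ± 3.20) and Vsig4 (9.60 ± 2.39) were the highest on this per-length scale. The other 6 lay between 1.08 FPKM (Clec1b) and 2.55 FPKM (Cd163). Neighbours in this order overlapped between samples except Cd5l above Vsig4 and Vsig4 above Cd163. In CDAHFD_sham livers the order changed: Cd5l was first at 139 ± 31.1 FPKM, with its lowest sample (111) above the highest of Vsig4 (40.3). Timd4 and Cd163 were last, at 1.26 and 1.05 FPKM, each below every sample of Clec1b. In CDAHFD_RIC livers Cd5l was again first and Timd4 and Cd163 last.

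**Figure D1:**
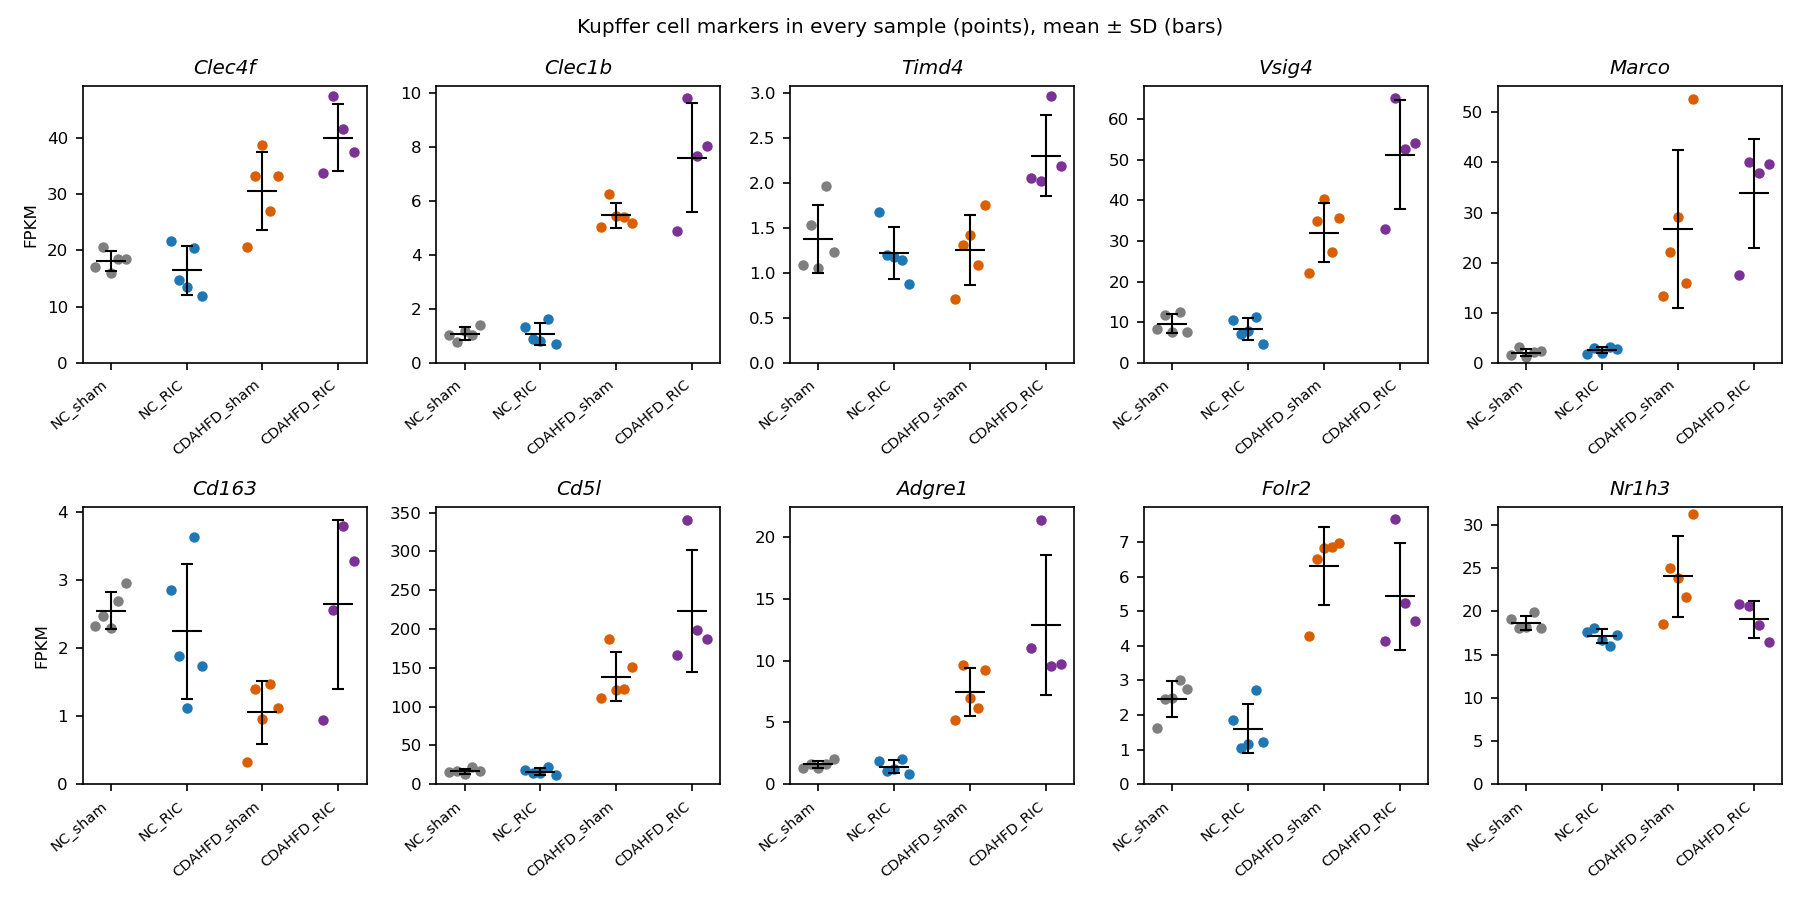
FPKM (y axis, linear, each gene on its own scale) of the 10 markers in every sample (points) of the 4 groups (x axis), with group mean ± SD in black, n = 5 except CDAHFD_RIC with n = 4. Vsig4, Cd5l, Marco, Clec1b, Adgre1 and Folr2 lie higher in every CDAHFD_sham sample than in any NC_sham sample, and Timd4 lies higher in every CDAHFD_RIC sample than in any CDAHFD_sham sample.

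The first comparison asks how the markers differed between the diets without conditioning (CDAHFD_sham against NC_sham). Of the 10 markers, 8 rose, Cd163 fell, and Timd4 did not pass the test (limma on log2(FPKM + 1), adjusted p under 0.05 over all 10577 genes). This is to be read against a table in which 63.9% of all tested genes were called higher and 10.3% lower. The median difference of the markers was 1.35 on the log2(FPKM + 1) scale, and that of all tested genes was 0.45. The ranges of the groups did not overlap for 6 markers that rose (52.4% of all tested genes lay apart in that direction) and for Cd163 downward (6.91%).

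Among the lectins, Clec4f, a C-type lectin whose expression in mice is largely restricted to Kupffer cells, measured 17.0, 20.6, 16.0, 18.5 and 18.5 FPKM in the NC_sham samples. The CDAHFD_sham samples measured 20.6, 33.2, 38.8, 27.1 and 33.2 FPKM. One CDAHFD_sham sample, replicate 1, lay inside the chow range and the other 4 above it, and the difference was 0.70 ± 0.16 (SE, log2 scale, limma adjusted p = 8.74e-04). Scaling the libraries by median ratios brought the median of all genes from 0.45 to -0.05 and the difference of Clec4f to 0.062 (limma adjusted p = 0.767). The call was also lost under quantile normalization (0.31, limma adjusted p = 0.128) and held with libraries set to a common sum (0.75, limma adjusted p = 6.67e-04). Clec1b, also known as CLEC-2, the receptor for podoplanin that platelets carry too, was 1.08 ± 0.240 FPKM in NC_sham and 5.47 ± 0.470 FPKM in CDAHFD_sham (SD, n = 5 each), a difference of 1.64. The 8 platelet genes summed to 0.474 to 1.19 FPKM in NC_sham, with Treml1 at 0 in every sample, and to 6.36 to 9.81 FPKM in CDAHFD_sham. Over all samples Pf4 averaged 2.68 FPKM, against 0.351 FPKM for Itga2b, the next highest of the 8. Only Pf4 reached a mean of 1 FPKM, so such sums mostly follow this 1 gene. Clec9a averaged 0.523 FPKM in NC_sham and 2.51 FPKM in CDAHFD_sham. The part of either in the Clec1b values was not tested.

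Among the receptors for uptake, Vsig4, a complement receptor that captures opsonised particles, measured 8.35, 11.9, 7.60, 12.5 and 7.66 FPKM in NC_sham. It measured 22.1, 34.8, 40.3, 27.2 and 35.7 FPKM in CDAHFD_sham. All samples on the diet lay above all on chow, with a difference of 1.64 ± 0.22 (limma adjusted p = 1.88e-06). Marco, a class A scavenger receptor for bacteria and particles, measured 1.58, 3.15, 1.06, 2.10 and 2.34 FPKM in NC_sham. It measured 13.3, 22.2, 29.1, 15.9 and 52.7 FPKM in CDAHFD_sham, again with no overlap, but with a wide spread within the diet group. Its difference of 3.06 ± 0.30 was the largest of the 10 markers in this comparison.

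Timd4, a phosphatidylserine receptor for apoptotic cells that marks long-lived resident Kupffer cells, measured 1.09, 1.53, 1.05, 1.96 and 1.23 FPKM in NC_sham. It measured 0.711, 1.31, 1.42, 1.08 and 1.75 FPKM in CDAHFD_sham. The groups overlapped and the difference was -0.08 ± 0.13 (limma adjusted p = 0.607), while the typical gene of the table was higher by 0.45. Under median-ratio scaling and quantile normalization Timd4 was called lower, with differences of -0.44 and -0.61 (limma adjusted p = 0.00784 and 4.81e-04). By the depth estimate, 1 read was worth 0.0234 FPKM of Timd4 at the mean depth. The part of counting noise in values near 1.26 FPKM was not tested.

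Cd163, the scavenger receptor for haptoglobin-bound hemoglobin, was the marker that fell. The NC_sham samples measured 2.32, 2.48, 2.30, 2.69 and 2.95 FPKM. The CDAHFD_sham samples measured 0.325, 1.40, 0.957, 1.47 and 1.12 FPKM, each of them below every chow sample. The difference was -0.82 ± 0.23 on the log2 scale (SE, limma adjusted p = 0.00345). Over 10 other settings and 10 fits without 1 replicate, its difference ranged from -1.33 to -0.67 and was called lower in each.

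Cd5l, a secreted scavenger protein also called AIM that macrophages release and that LXR is known to induce, measured 15.3, 16.6, 13.6, 22.1 and 17.2 FPKM in NC_sham. It measured 111, 187, 121, 123 and 152 FPKM in CDAHFD_sham, a difference of 2.95 ± 0.20 (limma adjusted p = 2.25e-10) with all samples apart. Adgre1, which encodes the F4/80 antigen of mouse macrophages, was 1.61 ± 0.304 FPKM in NC_sham and 7.45 ± 1.92 FPKM in CDAHFD_sham, and differed by 1.67. F4/80 is also carried by eosinophils, whose 6 listed genes summed to at most 0.0415 FPKM in NC_sham and to 0.490 to 0.756 FPKM in CDAHFD_sham, with Epx and Ear6 at 0 in every sample of both groups. Folr2, the folate receptor of tissue macrophages, was 2.47 ± 0.523 and 6.29 ± 1.13 FPKM, and differed by 1.07.

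Nr1h3, which encodes the nuclear receptor LXRα and is expressed in hepatocytes as well as in Kupffer cells, was 18.7 ± 0.808 FPKM in NC_sham and 24.1 ± 4.71 FPKM in CDAHFD_sham (SD, n = 5 each). The groups overlapped and the difference of 0.33 ± 0.10 (limma adjusted p = 0.00717) was below the median of all genes. It turned over under median-ratio scaling (-0.30, limma adjusted p = 0.0114) and quantile normalization (-0.062, limma adjusted p = 0.602). With median-ratio scaling the count of the markers was thus 6 higher and 3 lower, and with quantile normalization 6 higher and 2 lower. Of all 10577 genes 7852 were called on the deposited scale, 6486 under median-ratio scaling and 6544 under quantile normalization. The share of higher among called genes was 86.1%, 43.9% and 47.6%, in that order. Without CDAHFD_sham replicates 2 and 5, which an earlier analysis had placed apart, the markers counted 7 higher and 1 lower. Of all genes 7506 were then called, 83.9% of them higher.

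**Figure D2:**
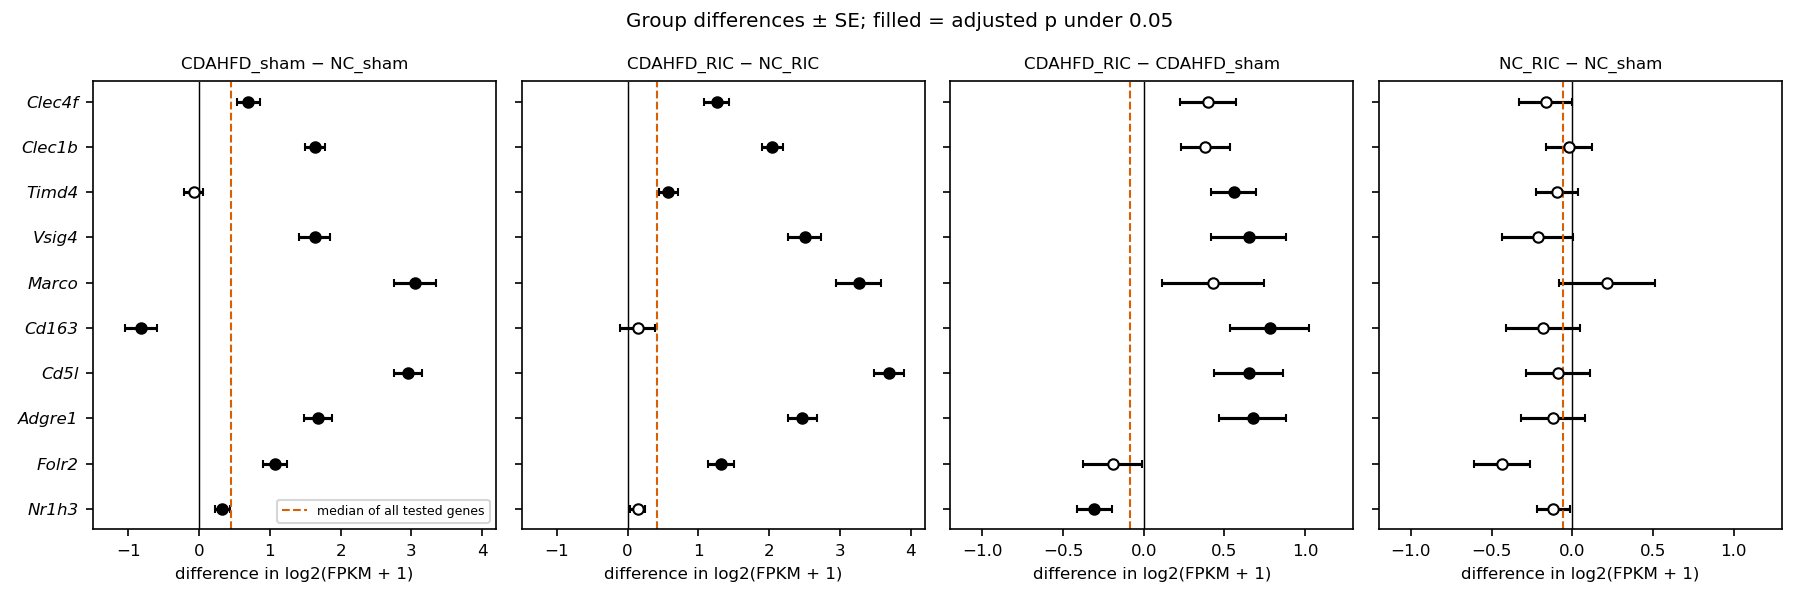
Difference in log2(FPKM + 1) ± SE (x axis) of each marker (y axis) in 4 comparisons, with separate x scales for diet and conditioning. Filled points passed an adjusted p of 0.05, and the dashed line is the median of all tested genes, 0.45 in the first panel and -0.08 in the third.

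In conditioned mice (CDAHFD_RIC against NC_RIC), 8 markers were called higher and 0 lower, where 63.6% of all genes were called higher and 6.68% lower. Timd4 was among those that rose there, by 0.58 ± 0.14 (limma adjusted p = 0.00128). It was not called under median-ratio scaling (0.19, limma adjusted p = 0.270) or quantile normalization (0.075, limma adjusted p = 0.672). Cd163, at 2.24 ± 0.989 FPKM in NC_RIC (SD, n = 5) and 2.64 ± 1.24 FPKM in CDAHFD_RIC (SD, n = 4), differed by 0.14 (limma adjusted p = 0.611), and Nr1h3 by 0.14 (limma adjusted p = 0.249). Nr1h3 was called lower in this comparison under median-ratio scaling (-0.45) and quantile normalization (-0.27), and higher with a common sum (0.34). With either of the former the markers counted 7 higher and 1 lower, and with a common sum 9 higher and 0 lower. Of all called genes 90.5% were higher on the deposited scale, 45.0% under median-ratio scaling, 47.2% under quantile normalization and 94.5% with a common sum. In that order, 7435, 5407, 5401 and 8409 of all 10577 genes were called. The other 7 markers differed by between 1.26 (Clec4f) and 3.69 (Cd5l).

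The next comparison asks what conditioning changed on the diet (CDAHFD_RIC against CDAHFD_sham). Timd4, Vsig4, Cd5l, Cd163 and Adgre1 rose, Nr1h3 fell, and Clec4f, Marco, Clec1b and Folr2 did not pass the test. Of all tested genes 8.72% were called higher and 18.6% lower. The median difference of the markers was 0.49, and that of all tested genes was -0.08. The number of markers that passed depended on single libraries. It was 5 higher and 1 lower with all samples, but 1 higher and 1 lower without CDAHFD_sham replicate 1 and likewise without CDAHFD_RIC replicate 2, and 3 higher and 0 lower without CDAHFD_RIC replicate 3 or replicate 4. With CDAHFD_sham 1 and CDAHFD_RIC 2 both left out, 1 marker was higher (Timd4) and 1 lower (Nr1h3), and without CDAHFD_sham 2 and 5 it was 5 higher and 0 lower. Without a filter on low values, or with these 2 groups fitted alone, 1 marker was called, which was Timd4. Of all genes, 2306 were called without CDAHFD_sham replicate 1 (29.7% of them higher) and 2384 without CDAHFD_RIC replicate 2 (27.1%). Without CDAHFD_RIC replicate 3 or 4 it was 2077 (37.4%) and 2787 (29.9%). It was 1898 (25.7%) without CDAHFD_sham 1 and CDAHFD_RIC 2, and 3257 (39.6%) without CDAHFD_sham 2 and 5. No filter gave 3169 of 29754 (31.7%), and these groups alone 1868 (29.1%).

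Timd4 was the 1 marker whose groups lay apart (5.26% of all tested genes lay apart upward). The CDAHFD_sham samples measured 0.711, 1.31, 1.42, 1.08 and 1.75 FPKM. The CDAHFD_RIC samples measured 2.05, 2.02, 2.96 and 2.18 FPKM, all above the highest sham value. The difference was 0.56 ± 0.14 (SE, limma adjusted p = 0.00766), and it stayed called in 10 other settings and in 9 fits without 1 replicate, with adjusted p from 0.00303 to 0.0334. Timd4 is also carried by peritoneal macrophages, whose 8 listed genes summed to 74.3 to 79.8 FPKM in CDAHFD_sham and 62.4 to 79.6 FPKM in CDAHFD_RIC. These sums are mostly F5, which averaged 57.2 FPKM over all samples, against 2.99 FPKM for Prg4, the next highest of the 8. They were 53.4 to 62.5 FPKM in NC_sham and are no measure of peritoneal macrophages. Of 5 tested genes of that list 4 had risen with the diet in sham mice, and Thbs1, Prg4 and Gata6 fell with conditioning, by 1.46, 0.72 and 0.34 on the log2 scale. Gata6 was not called under the 3 scalings. The part of such cells in the Timd4 values was not tested.

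Cd163 measured 0.325, 1.40, 0.957, 1.47 and 1.12 FPKM in CDAHFD_sham. It measured 0.940, 2.55, 3.80 and 3.28 FPKM in CDAHFD_RIC, where replicate 1 lay inside the sham range and the other 3 above it. The difference was 0.78 ± 0.24 (limma adjusted p = 0.0242), and 0.63 (limma adjusted p = 0.0656) without CDAHFD_sham replicate 1, the lowest sample of its group. Its call was also lost without CDAHFD_RIC replicate 2, 3 or 4, with adjusted p of 0.0506, 0.0910 and 0.0666.

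Vsig4 measured 22.1, 34.8, 40.3, 27.2 and 35.7 FPKM in CDAHFD_sham. It measured 32.9, 65.1, 52.7 and 54.2 FPKM in CDAHFD_RIC, with replicate 1 again inside the sham range. The difference of 0.65 ± 0.23 was close to the threshold (limma adjusted p = 0.0446), and it missed it without CDAHFD_sham replicate 1 or 4 or CDAHFD_RIC replicate 2, 3 or 4, at a highest adjusted p of 0.134. Cd5l measured 111, 187, 121, 123 and 152 FPKM in CDAHFD_sham. It measured 166, 340.2, 199 and 187 FPKM in CDAHFD_RIC, where replicate 2 stood far above the rest. Its difference was 0.65 ± 0.21 (limma adjusted p = 0.0300), and 0.43 (limma adjusted p = 0.121) without that replicate. It also lost its call without CDAHFD_sham replicate 1, 3 or 4 (limma adjusted p = 0.0715, 0.0658 and 0.0581).

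Adgre1 measured 5.19, 9.62, 7.01, 6.20 and 9.23 FPKM in CDAHFD_sham. It measured 11.0, 21.4, 9.55 and 9.76 FPKM in CDAHFD_RIC, with the same replicate 2 highest. The difference was 0.67 ± 0.21 (limma adjusted p = 0.0237), and 0.42 (limma adjusted p = 0.0943) without that replicate. Without CDAHFD_sham replicate 1 its adjusted p was 0.0623.

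Nr1h3 measured 18.6, 25.0, 23.9, 21.6 and 31.3 FPKM in CDAHFD_sham. It measured 20.9, 20.6, 18.4 and 16.4 FPKM in CDAHFD_RIC, and the groups overlapped. The difference was -0.31 ± 0.11 on the log2 scale (limma adjusted p = 0.0434). The difference was -0.19 (limma adjusted p = 0.175) with median-ratio scaling, and the call was also lost when libraries were set to a common sum or quantile normalized. It was lost as well without CDAHFD_sham replicate 2, 3 or 5 or CDAHFD_RIC replicate 3 or 4, with a highest adjusted p of 0.128. In all 3 of these scalings the markers counted 0 lower, and 6 higher with a common sum and 7 higher with median ratios or quantiles. Of all 10577 genes 2886 were called on the deposited scale, and 2181, 2355 and 2930 with a common sum, median ratios and quantiles. The share of higher among called genes moved from 31.9% to 55.5%, 58.5% and 50.5%, in that order.

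The 4 markers that did not pass were of both signs. Clec4f was 30.6 ± 6.94 FPKM (SD, n = 5) in CDAHFD_sham and 40.1 ± 5.90 (SD, n = 4) in CDAHFD_RIC, a difference of 0.40 ± 0.17 (limma adjusted p = 0.0945). Clec1b was 5.47 ± 0.470 and 7.61 ± 2.03 FPKM (limma adjusted p = 0.0667). Both passed under median-ratio scaling and quantile normalization. The 8 platelet genes summed to 6.36 to 9.81 FPKM in CDAHFD_sham and 2.93 to 6.91 FPKM in CDAHFD_RIC, with Gp6 at 0 in every CDAHFD_RIC sample, while Pf4, the platelet chemokine gene, fell by 0.86 and Clec9a averaged 2.51 and 1.38 FPKM. The part of either in the Clec1b values was not tested. Marco was 26.6 ± 15.8 and 33.8 ± 10.9 FPKM (limma adjusted p = 0.328), and Folr2 was 6.29 ± 1.13 and 5.44 ± 1.55 FPKM (limma adjusted p = 0.456).

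On chow, conditioning gave 0 called markers (NC_RIC against NC_sham, limma), where 0.321% of all genes were called higher and 0.86% lower. At an unadjusted p under 0.05 there was 1 marker, Folr2, at 1.63, 2.46, 2.48, 3.01 and 2.76 FPKM in NC_sham. It was 1.85, 1.05, 1.17, 2.73 and 1.23 FPKM in NC_RIC, a difference of -0.43 ± 0.17 with an adjusted p of 0.214 in limma's test. Nr1h3 did not overlap between the groups, at 19.1, 18.1, 18.1, 19.9 and 18.1 FPKM in NC_sham. It was 17.6, 18.04, 16.6, 16.0 and 17.3 FPKM in NC_RIC, the highest just under the lowest NC_sham value of 18.08 (3.75% of all tested genes lay apart downward), but the difference of -0.12 ± 0.10 was not called (limma adjusted p = 0.620). The 9 markers besides Folr2 differed by between -0.21 (Vsig4) and 0.22 (Marco). Timd4 was 1.37 ± 0.38 FPKM in NC_sham and 1.22 ± 0.288 FPKM in NC_RIC (SD, n = 5 each).

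The difference between the effect of conditioning on the diet and on chow was tested as an interaction. Timd4 passed, with an interaction of 0.65 ± 0.19 (limma adjusted p = 0.0472), where 3.59% of all genes were called higher. The call stood close to the threshold: the count of markers fell to 0 without CDAHFD_sham replicate 1, 3 or 4, without CDAHFD_RIC replicate 2, 3 or 4, without NC_sham replicate 2, 4 or 5, and without NC_RIC replicate 2, 3 or 5. Without NC_RIC replicate 4 or CDAHFD_RIC replicate 1 Timd4 was also not called, and Cd163 was called in its place, with Vsig4 beside it in the latter case. The adjusted p of Timd4 without 1 replicate ranged from 0.033 to 0.1. Cd163 (0.96 ± 0.33, limma adjusted p = 0.0878), Vsig4 (0.86 ± 0.32, 0.107), Adgre1 (0.79 ± 0.29, 0.0998) and Cd5l (0.74 ± 0.29, 0.129) were not called. Neither were Clec4f (0.56 ± 0.24, limma adjusted p = 0.160), Clec1b (0.40 ± 0.21, 0.253), Folr2 (0.24 ± 0.25, 0.603), Marco (0.21 ± 0.44, 0.812) and Nr1h3 (-0.19 ± 0.15, 0.480).

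The markers were next set beside genes that macrophages share. Macrophage genes in general were given by 18 genes, among them Csf1r, the receptor for the growth factor that macrophages need, and Cd68, a lysosomal glycoprotein. All 18 rose with the diet in sham mice, with a median difference of 2.64. Csf1r went from 1.85 ± 0.140 FPKM in NC_sham to 14.4 ± 1.47 FPKM in CDAHFD_sham, and Cd68 from 1.59 ± 0.189 to 41.9 ± 10.2 FPKM (SD, n = 5 each). Set against Csf1r in the same sample, 6 markers were lower in every CDAHFD_sham sample than in any NC_sham sample: Clec4f, Timd4, Vsig4, Cd163, Folr2 and Nr1h3. The same was true of 90.1% of all tested genes, and Csf1r itself rose by 2.43 on the log2 scale. Clec4f had a median of 9.92 times the FPKM of Csf1r on chow (8.60 to 11.1) and 2.21 times on the diet (1.41 to 2.71). For Timd4 these medians were 0.668 and 0.0876, and for Cd163 1.43 and 0.0743. For Cd5l the medians were 8.93 and 8.78 and the ranges overlapped, as they did for Marco, Adgre1 and Clec1b. The overlap depended on the reference. Set against Cd68, Cd5l lay apart downward (7.27 to 14.2 in NC_sham, 1.98 to 5.84 in CDAHFD_sham). So did Adgre1 (0.718 to 1.34 and 0.0932 to 0.300), Clec1b (0.470 to 0.918 and 0.0906 to 0.195) and the 6 markers above. Marco overlapped (0.566 to 1.95 and 0.239 to 1.44). Cd68 itself rose further than Csf1r, from 1.59 to 41.9 FPKM. The share of all genes apart relative to Cd68 was not counted, so these positions are not shown to be particular to the markers.

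**Figure D3:**
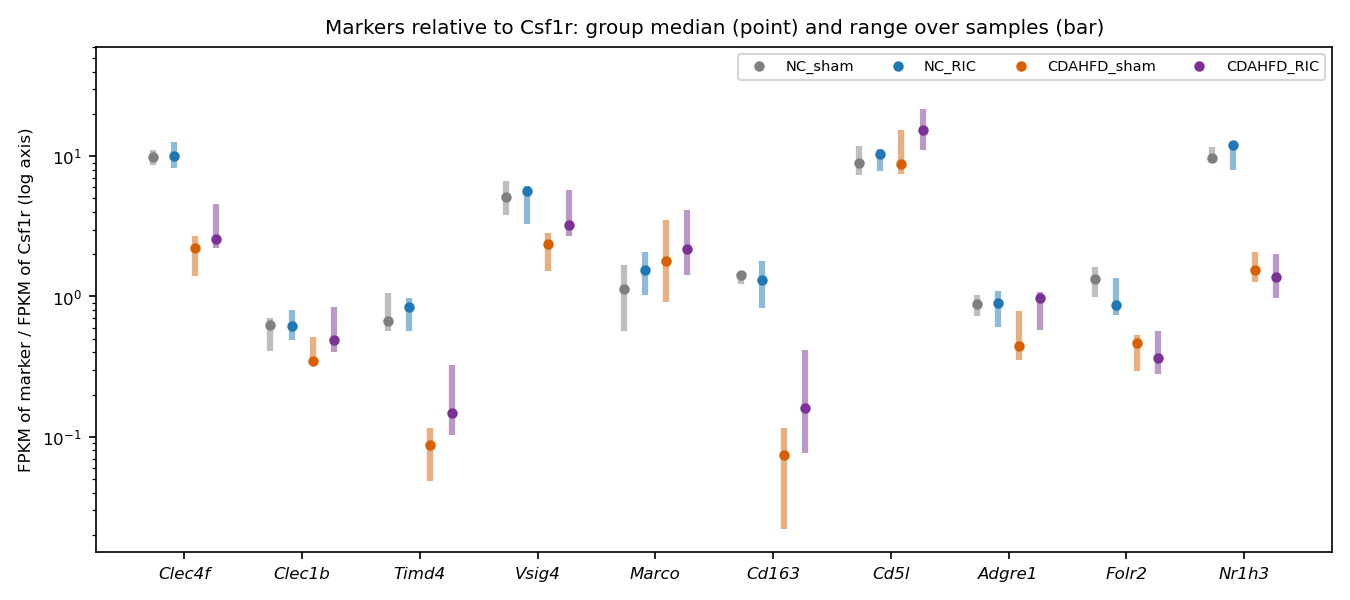
FPKM of each marker divided by the FPKM of Csf1r in the same sample (y axis, log scale), as group median (points) and range over samples (bars), for the 10 markers (x axis) and 4 groups. The diet groups lie below the chow groups for Clec4f, Timd4, Cd163 and Nr1h3, and overlap them for Cd5l and Marco.

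With conditioning on the diet, 0 of the 18 general macrophage genes passed the test in limma, and 3 (Mertk, Fcer1g and Cybb) had an unadjusted p under 0.05. Under quantile normalization 3 were called higher (Mertk, Msr1 and Cybb), under median-ratio scaling 1 (Mertk). The list's median difference was -0.01, and Csf1r was 14.5 ± 4.73 FPKM in CDAHFD_RIC (SD, n = 4). Relative to Csf1r the ranges of CDAHFD_sham and CDAHFD_RIC overlapped for all 10 markers, including Timd4 (0.0486 to 0.116 against 0.102 to 0.324) and Cd163 (0.0222 to 0.115 against 0.0771 to 0.415), where 1.3% of all tested genes lay apart upward. Csf1r itself varied between 9.16 and 19.7 FPKM within CDAHFD_RIC. Relative to Cd68, Vsig4 lay apart upward (0.397 to 1.09 in CDAHFD_sham against 1.13 to 3.13 in CDAHFD_RIC), and the other markers overlapped. The share of all genes apart relative to Cd68 was not counted, so this is not shown to be particular to Vsig4.

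A further 16 genes known from Kupffer cells were listed besides the markers. Of these 16 genes 13 were tested. With the diet in sham mice 12 of the 13 rose, with a median of 1.46, among them Fabp7, a fatty acid binding protein, by 3.75, Hmox1, which degrades heme, by 3.62, and Cfp, the complement protein properdin, by 2.25. C6, a complement component that hepatocytes also make, fell by 2.09. With median-ratio scaling 9 rose and 2 fell (C6 and Cd81). With conditioning on the diet 0 of the 13 passed in limma, 1 (Hmox1) had an unadjusted p under 0.05, and the median was 0.05. It was also 0 of 13 with each of 3 scalings and without the sample pairs named above.

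Of 14 transcription factors listed for Kupffer cell identity 10 were tested, and 8 rose with the diet in sham mice. Spi1, which encodes PU.1, rose by 2.82, Id3 by 2.93, Id1 by 3.15 and Maf by 1.33. With median-ratio scaling 6 rose. With conditioning on the diet Id1 and Id3, which answer to BMP signals, both fell by 0.99 (limma adjusted p = 0.00458 and 0.00260), and Rxra, the partner of LXR, rose by 0.51 (limma adjusted p = 0.00208). These 3 calls held under the 3 scalings and without either sample pair. Spic, a factor of heme-handling macrophages, differed by -0.07 (limma adjusted p = 0.722). On chow 0 of the 10 passed in limma, and 1, Id3, had an unadjusted p under 0.05.

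All 12 listed LXR target genes were tested, which hepatocytes express as well. With the diet in sham mice 10 rose, and Abcg8, which forms the sterol exporter with Abcg5, fell by 0.57. With median-ratio scaling 6 rose and 2 fell (Abcg5 and Abcg8). With conditioning on the diet 5 rose, with 0 lower: Abcg5 by 0.83, Abcg8 by 0.92, Lpcat3, a phospholipid acyltransferase, by 0.49, Srebf1 by 0.67 and Abca1, the exporter of cellular cholesterol, by 0.49. The list's median was 0.30. All 5 were also called under the 3 scalings, and 4, without Abca1, when CDAHFD_sham 1 and CDAHFD_RIC 2 were left out. Over the same comparison Nr1h3 fell and Cd5l rose, as given above. Of 12 listed genes for signals that place and keep macrophages in the liver, and for their receptors, 7 were tested. They include Csf1r, which is also among the 18 general macrophage genes. All 7 rose with the diet in sham mice, and 6, without Il34, under median-ratio scaling or quantile normalization. Ccl2 and Csf1 fell with conditioning on the diet by 0.69 and 0.57.

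**Figure D4:**
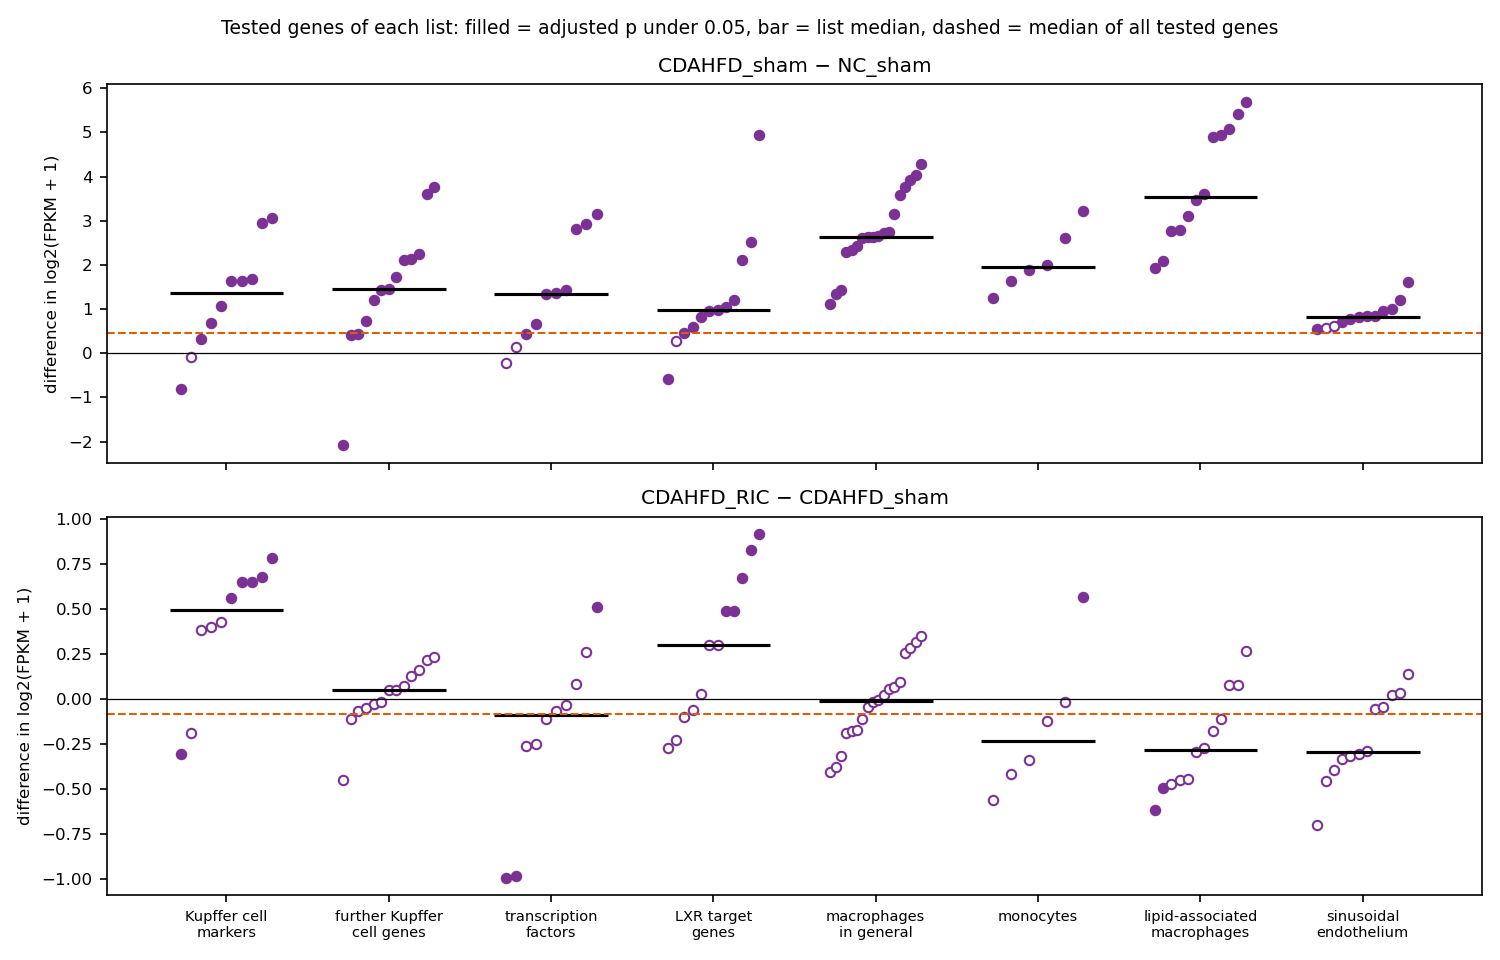
Difference in log2(FPKM + 1) (y axis) of each tested gene (points) in 8 gene lists (x axis), for diet in sham mice (top) and conditioning on the diet (bottom), with separate y scales. Filled points passed an adjusted p of 0.05, the bar is the list's median and the dashed line the median of all tested genes. In the lower panel the marker list has a median of 0.49, the further Kupffer cell genes 0.05 and the general macrophage genes -0.01.

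Genes of other cells that could share these transcripts were listed too. Of 13 monocyte genes 6 were tested, and all 6 rose with the diet in sham mice. Ccr2, the chemokine receptor of incoming monocytes, was 0.140 ± 0.0455 FPKM in NC_sham and 3.63 ± 0.876 FPKM in CDAHFD_sham. The 12 genes of lipid-associated macrophages all rose with the diet, and Trem2, their lipid receptor, went from 0.0631 ± 0.0432 to 6.38 ± 0.806 FPKM. With conditioning on the diet Chil3 rose by 0.57 among the monocyte genes, and Lgals3 and Cd63 of the lipid-associated list fell by 0.62 and 0.49. Lgals3 and Cd63 were not called under median-ratio scaling. Ccr2 was 2.66 ± 0.714 FPKM and Trem2 5.23 ± 1.97 FPKM in CDAHFD_RIC (SD, n = 4), neither of them called. Without CDAHFD_sham 1 and CDAHFD_RIC 2, Ccr2 and Plac8 were called lower and Chil3 was not called, and without CDAHFD_sham 2 and 5, Ccr2, Plac8 and Itgal were called lower beside the rise of Chil3.

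Sinusoidal endothelial cells line the vessels in which Kupffer cells sit. Of 13 listed endothelial genes 12 were tested, 10 rose with the diet in sham mice (6 after median-ratio scaling and 3 under quantile normalization), and 0 passed with conditioning on the diet in limma, where 2 (Lyve1 and Pecam1) had an unadjusted p under 0.05. Clec4g, a lectin of these cells, was 6.44 ± 1.94 FPKM in NC_sham, 4.02 ± 1.58 in NC_RIC, 9.96 ± 1.76 in CDAHFD_sham and 7.55 ± 3.65 in CDAHFD_RIC. Of 8 neutrophil genes 3 were tested. All 3 rose with the diet in sham mice, and S100a8 fell by 0.66 with conditioning on the diet, a call lost under each of the 3 scalings. Of 10 hepatocyte genes 1 rose and 7 fell with the diet in sham mice (1 and 9 after median-ratio scaling, 1 and 3 under quantile normalization), while with conditioning on the diet Cps1 and Apob rose and Ttr fell (Ttr not under quantile normalization, and Apob not without CDAHFD_sham 1 and CDAHFD_RIC 2). The part of these other cells in the marker values was not tested.

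Between samples of the same group most pairs of markers varied together, but the same measure was not computed over pairs of all genes. Over the 45 pairs, the correlation of deviations from the group mean (19 samples, which share library and depth, given as a description) had a median of 0.539, was above 0.5 in 26 pairs and below 0 in 2. The pairs Cd5l with Adgre1 (0.886) and Clec4f with Vsig4 (0.873) were the closest. The 9 pairs with Nr1h3 had a median of 0.33, and the other 36 a median of 0.615, none of them under 0.11. By these medians Nr1h3 followed the other 9 markers less closely than they followed each other. The cause was not tested.

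Among all tested genes, those nearest to Clec4f by this measure were Vsig4 (0.873), Cdh5 (0.826) and Dpy19l4 (0.800). For Timd4 they were BC005561 (0.849), Golim4 (0.772) and Gm10557 (0.763). For Cd5l they were Adcy9 (0.888), Adgre1 (0.886) and Lnpep (0.860), and for Nr1h3 they were Mybl1 (0.918), Iffo2 (0.889) and Tmprss6 (0.886). Cdh5 is the endothelial cadherin and Tmprss6 a hepatocyte protease. The part of other cells in these correlations was not tested. For Timd4, Cd163, Marco, Clec1b, Folr2 and Nr1h3, none of the 5 nearest genes was another marker. The shared variation is thus not shown to be particular to the marker set.

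Whole samples were high or low in most markers at once. CDAHFD_sham replicate 1 was under its group mean in all 10 markers, with a median deviation of -0.431 on the log2 scale. CDAHFD_RIC replicate 1 was under it in 9 (median -0.331), and CDAHFD_RIC replicate 2 above it in 9 (median 0.338). On chow, NC_RIC replicate 3 was below its mean in all 10 (median -0.168), and NC_RIC replicate 4 above in 8 (median 0.367). Leaving out CDAHFD_sham replicate 1 or CDAHFD_RIC replicate 2 gave the lowest counts of called markers among the fits without 1 replicate for conditioning on the diet, 2 each.

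**Figure D5:**
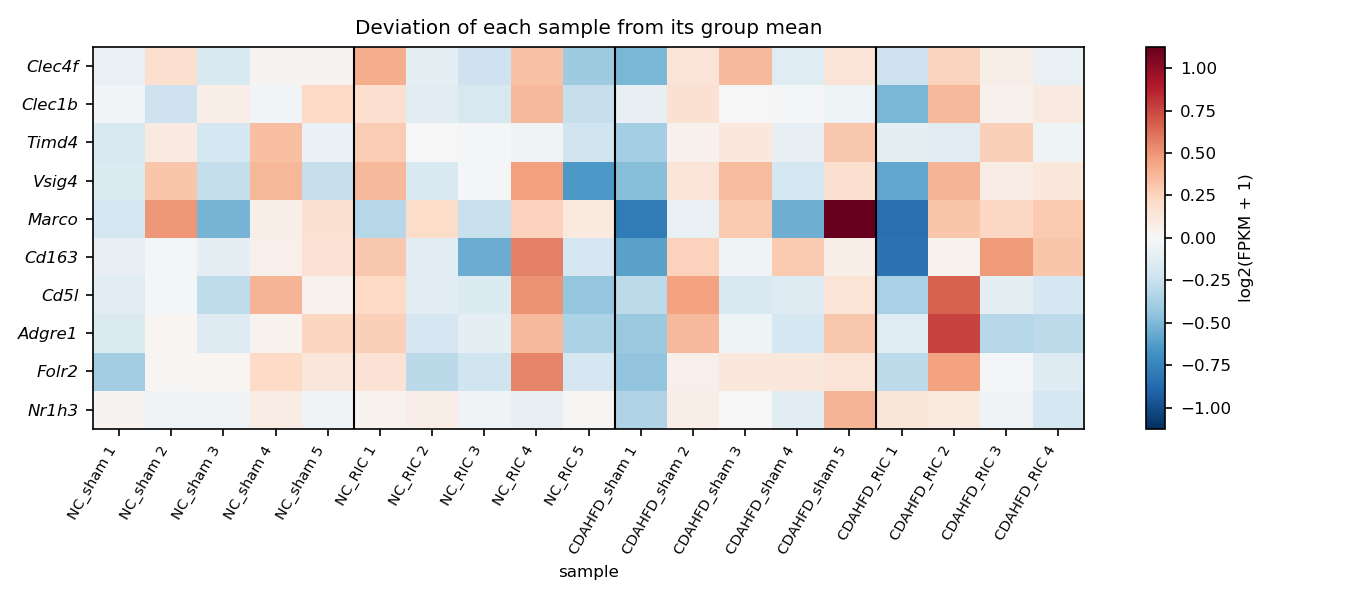
Deviation of each sample (x axis) from its group mean for each marker (y axis), on the log2(FPKM + 1) scale (colour, red above and blue below the mean). CDAHFD_sham 1 is blue in all 10 markers, and CDAHFD_RIC 2 is red in 9.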

How the data were processed

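Liver RNA was sequenced in 19 mouse samples. FPKM values per gene were computed by the authors and deposited as 1 table, and FastQC 0.11.9, Trimmomatic 0.38, HISAT2 2.2.1 and HTSeq 0.13.5 with the mm10 genome were used, per the submitters' processing notes. The program behind the FPKM values, its gene lengths and its use of strand are not given in the sources used here. Entries without a gene name (3225, holding 0.137 to 0.188% of the FPKM of a sample) were left out. The 10577 of 52110 named genes whose mean over all samples reached 1 FPKM were tested on log2(FPKM + 1), which understates changes of low genes, with limma 3.58.1 in R 4.3.3 (1 mean per group, eBayes with trend, 15 residual degrees of freedom, two-sided), adjusted by Benjamini and Hochberg over all tested genes and called under 0.05. The code was tested on simulated data. Low FPKM values were within 2% of whole reads in 23.8 to 28.1% of cases, so reads were not recovered and the depth is an estimate. No 2 samples shared more than 0.00945% of identical values.

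The 10 markers and the 13 other gene lists were chosen with earlier results of these data known. All 10 markers were tested in every comparison, and in some comparisons a part of them is given only within a range. Besides them, up to 4 called genes with the smallest adjusted p from a list are named, and fixed reference genes. Other listed genes are named after their values were seen. Gene positions are from GENCODE M21 and promoter windows from RefSeq. Alternatives were the pseudocount, the filter, 3 scalings, a replicate block, sample weights, the groups compared alone, and samples left out. For the other lists, the scalings and the sample pairs left out were chosen after seeing the data. Figures were drawn with matplotlib 3.10.9.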

Additional observations from a re-analysis of the deposited data

Results flagged for a closer look

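In 40 sets of values (10 markers in 4 groups), 3 samples stood apart from the rest of their group by Dixon's test at the 95% level, which chance alone marks in about 1 in 20 sets. Marco in CDAHFD_RIC replicate 1 was 17.5 FPKM, against 37.9 FPKM in the nearest sample. Adgre1 in CDAHFD_RIC replicate 2 was 21.4 FPKM, against 11.0 in the nearest. Folr2 in CDAHFD_sham replicate 1 was 4.30 FPKM, against 6.52 in the nearest. The effect of conditioning on Timd4 differed between the diets by 0.65 on the log2 scale in the interaction test (limma adjusted p = 0.0472).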

How the results depend on the processing

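The diet comparisons called 8 to 9 of the 10 markers in sham mice and 8 to 9 in conditioned mice over the alternatives, but not with the same directions. Under median-ratio scaling and quantile normalization Clec4f lost its call in sham mice, where Timd4 was called lower, Timd4 lost its call in conditioned mice, and Nr1h3 reversed, to -0.30 and -0.062 in sham mice and -0.45 and -0.27 in conditioned mice, with median-ratio scaling and quantile normalization in turn. These scalings set the typical gene near 0. With conditioning on the diet, the 6 called markers became 1 with no filter on low values, 1 with only the groups compared, 2 without CDAHFD_sham 1 and CDAHFD_RIC 2 together (chosen after seeing the data), and 2 to 7 without a single replicate. Of the 10 markers over 19 alternatives there, 142 of 190 results stayed on their side of the threshold, 41 lost their call, 7 gained one and 0 changed sign. Conditioning on chow gave 0 called markers throughout. For the interaction, the 1 called marker became 0 with a pseudocount of 0.1, no filter or median-ratio scaling. It also became 0 without CDAHFD_sham 1 and CDAHFD_RIC 2 together. The count was 4 with sample weights, 3 without CDAHFD_sham 2 and 5, and 0 to 2 without a single replicate. The cause was not tested. With the replicate number as a block, 9, 4, 0, 8 and 0 markers were called for diet in sham mice, conditioning on the diet, conditioning on chow, diet in conditioned mice and the interaction. The numbers are not shown to pair samples: same-numbered samples correlated at -0.174 to 0.176, with 6 of 27 above 0.1. By the depth estimate, 1 read was worth about 0.0234 FPKM of Timd4, a low marker, at the mean depth. The part of depth in the spread of the low markers was not tested.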
